A study of Caenorhabditis elegans with 37 samples.

Results

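The nociceptor PVD was compared with the amphid sensory neurons ASG, AWA and AWB of the nematode Caenorhabditis elegans. Libraries were taken by their sample names: all 2 labelled PVD and all 13 labelled ASG, AWA or AWB (4, 4 and 5), which makes 15 of the 37 libraries of the series. Each amphid type carried the same weight in the comparison, whatever its number of libraries. All cells were untreated, grown on plates with NA22 bacteria, and isolated by fluorescence-activated cell sorting into Trizol LS. Total RNA was made into libraries with the SoLo Ovation kit and sequenced. The series was built so that sorted types could be set against each other and against references. The strain, the reporter that marked each type and the number of animals were not given in the labels used here, and libraries are called by type and number, such as PVD 62.

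PVD is a pair of neurons that lie along the sides of the body and spread many-branched dendrites beneath the skin. They sense harsh touch and cold, have no cilia, and take their identity from the LIM homeodomain factor MEC-3 and the POU factor UNC-86. The amphid neurons sit in the head and reach the nose with a single dendrite that ends in a sensory cilium. ASG senses water-soluble cues, AWA detects attractive odours and AWB repellent ones. In the cilia of many amphid neurons, receptors on the cilium act through G proteins, guanylyl cyclases and cyclic GMP-gated channels, while AWA relies on TRPV channels.

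Total counts were 763634 in PVD 62 and 469314 in PVD 63. They ran from 1504220 to 2161865 in ASG, 1706608 to 2185997 in AWA and 251586 to 951675 in AWB. Levels are given as counts per 1000000 (CPM) of the library total, multiplied by its TMM factor, which aligns the bulk of genes between libraries. At these depths 3 counts over a group, taken as the floor for a gene with no counts, correspond to 2.11 CPM over PVD.

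The sorts were checked against marker lists. The 12 PVD markers took 0.967% and 1.40% of the counts in the PVD libraries and 0.00711% to 0.0164% in the 13 amphid libraries. The ASG, AWA and AWB marker lists took at most 0.0258% in PVD. AWA 20 and AWB 51 stood apart from their own groups. Pan-neuronal genes took 0.528% of the counts in AWA 20 and 0.274% in AWB 51, against 1.32% to 2.57% in the other amphid libraries. The AWB markers took 0.0442% in AWB 51 and 0.487% to 0.858% in the other AWB libraries, while AWA markers took 0.245% in AWA 20 and 0.427% to 1.76% in the other AWA libraries. AWB 51 was rich in body-wall muscle genes (3.78%) and AWA 20 in intestinal genes (1.60%). Both labels were kept, and for many but not all lists and genes that depend on these libraries the calls are given with and without them.

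**Figure D1:**
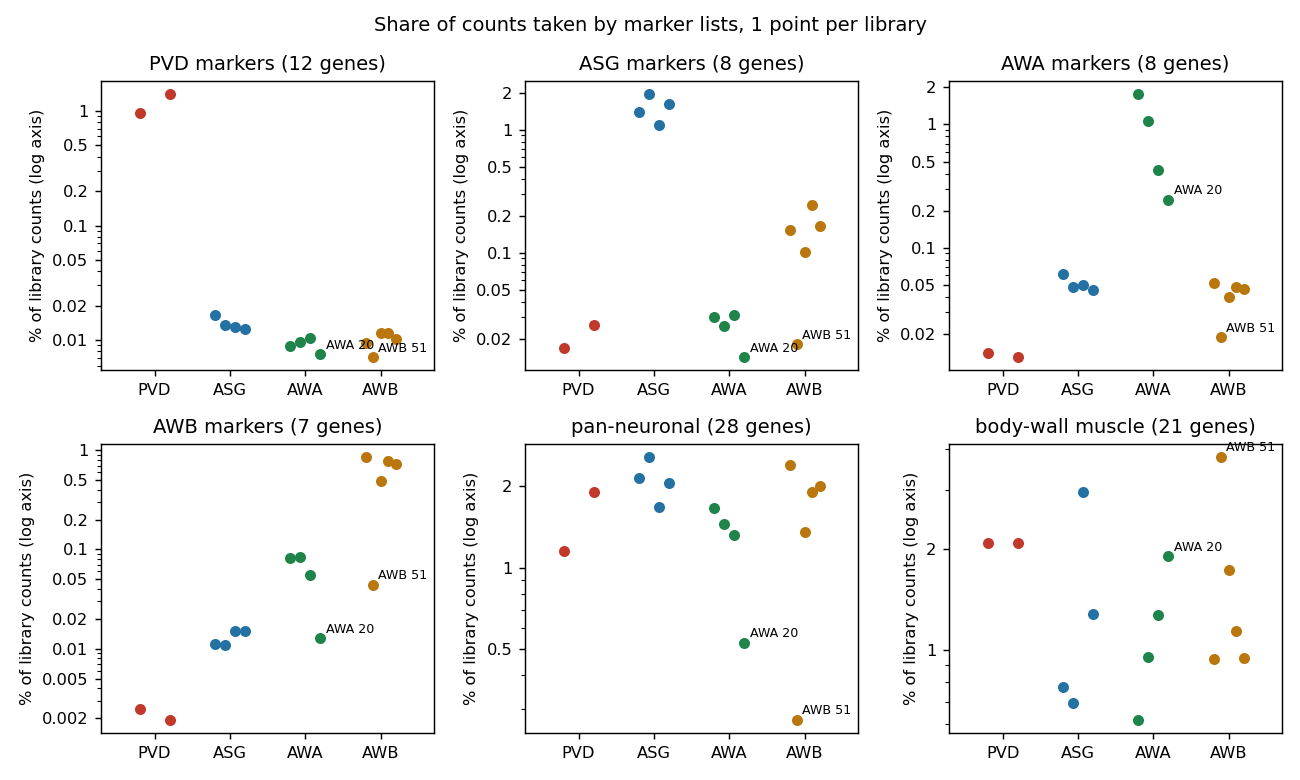
Share of each library's counts (percent, log axes) taken by 6 gene lists, with 1 point per library and columns for PVD, ASG, AWA and AWB. The PVD markers separate PVD from every amphid library, and AWA 20 and AWB 51 lie below the rest of their groups for pan-neuronal genes and for their own markers.

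The PVD libraries also differed from each other. Of the 11 PVD markers at 20 CPM or more, 11 were higher in PVD 63, with a median ratio of PVD 63 to PVD 62 of 1.96, against 1.26 over 5908 genes at that level. Pan-neuronal genes took 1.15% of counts in PVD 62 and 1.91% in PVD 63. Intestinal genes took 0.254% and 0.0778%, and cuticle collagens 1.85% and 0.682%. The part of this in the results below was not tested. In such bulk samples, fewer cells of a type and less RNA per cell cannot be told apart.

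Against the mean of the 3 amphid types, 850 genes were higher and 617 lower in PVD at an adjusted p under 0.05, of 15181 tested. These are 5.60% and 4.06% of all genes tested, the background against which the lists below are read. The median log2 difference over all genes was -0.09. Without PVD 63 there were 431 higher and 200 lower genes, without PVD 62 there were 688 and 136, and without AWA 20 and AWB 51 there were 1006 (6.71%) and 1121 (7.47%). Log2 differences are PVD minus the mean of the 3 types, with 1 standard error, from the edgeR quasi-likelihood test. Genes that were called, reached 20 CPM and did not overlap between the PVD and amphid libraries numbered 439 higher (2.89%) and 205 lower (1.35%). Whether called or not, both PVD libraries lay above all 13 amphid libraries for 618 genes (4.07%) and below all for 315 (2.07%).

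**Figure D2:**
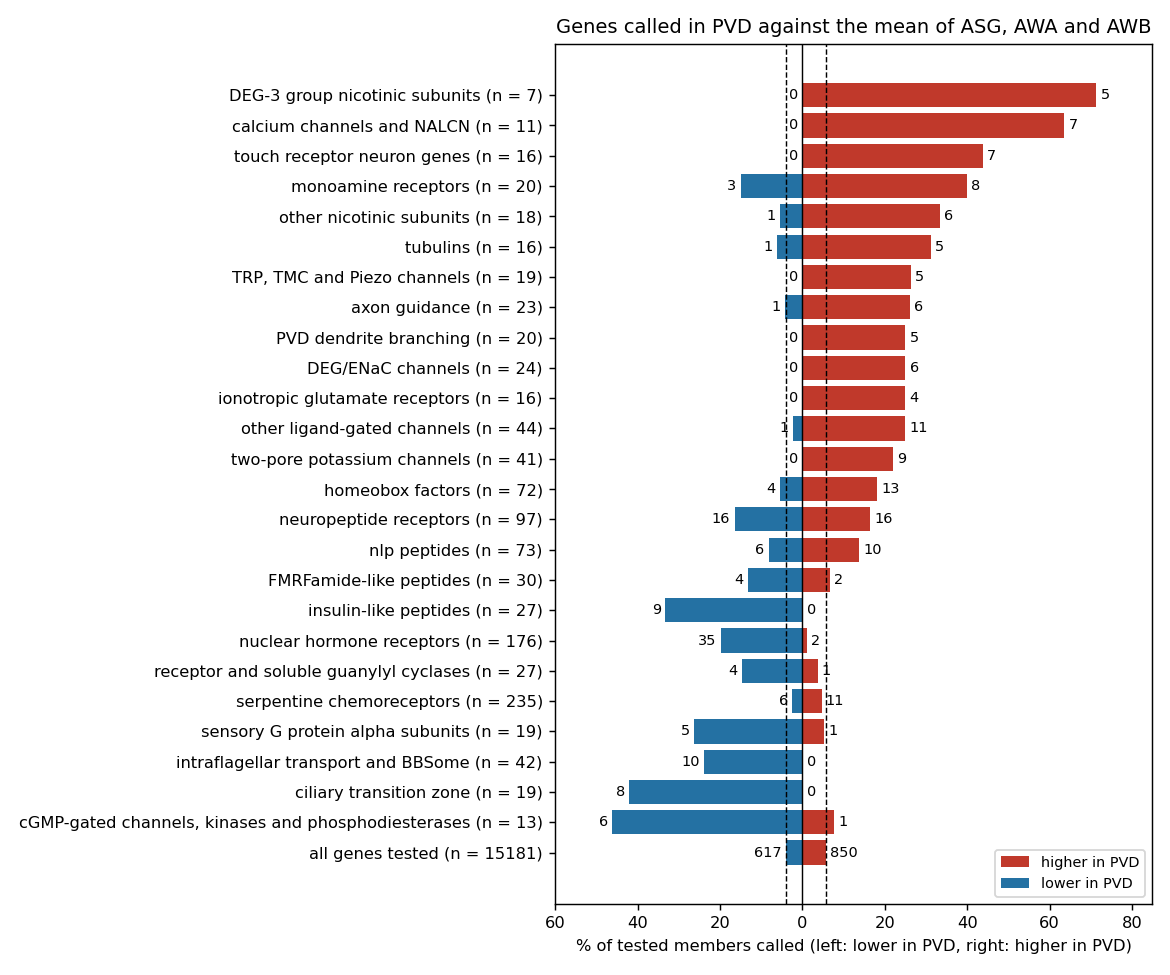
Percent of the tested members of 25 gene lists, and of all genes tested, that were called higher (right) or lower (left) in PVD against the mean of ASG, AWA and AWB. Bar ends give the number of genes, n the members tested, and dashed lines the shares over all genes (5.60% and 4.06%). Among the lists shown, those of transmitter receptors, ion channels and touch neuron genes extend mostly to the right. The list of voltage- and calcium-gated potassium channels is not shown and had more genes lower than higher. Cilium, cyclic GMP, insulin-like peptide and nuclear hormone receptor lists extend mostly to the left. Neuropeptide receptors reach 16.5% on each side, and serpentine chemoreceptors (4.68% and 2.55%) stay inside the dashed lines.

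The genes that mark PVD were present at high levels in both PVD libraries and near 0 in the amphid types. The marker list was assembled to recognise PVD, so its count describes the sort: 11 of 12 members were higher and 0 lower. Some members were counted again in lists below, whose counts are thus partly set by the choice of markers. These included mec-3 and unc-86 among transcription factors, and des-2 and deg-3 in the DEG-3 group. Likewise mec-10 and asic-1 counted among DEG/ENaC channels, and dma-1 and hpo-30 among branching genes. des-2, a nicotinic acetylcholine receptor subunit of the DEG-3 group, stood at 2860.1 and 4723 CPM in PVD 62 and PVD 63. Its level was 0.663, 3.20, 10.5 and 2.83 CPM in the ASG libraries, 2.28, 2.76, 8.46 and 9.19 in AWA and 4.92, 15.8, 14.1, 11.9 and 4.28 in AWB. Both PVD libraries lay far above the highest amphid library, with a log2 difference of 9.19 ± 0.40 (adjusted p = 1.12e-18). Its partner deg-3, which forms a choline-gated channel with it, stood at 1554 and 2668 CPM in PVD and at 1.33 to 20.9 CPM across the amphid libraries (log2 difference 8.59 ± 0.37). The pair are neighbours on chromosome V of the WBcel235 annotation, both on the minus strand, deg-3 at chrV:11412870-11415159 and des-2 at chrV:11415272-11421705, with 112 bases between them. Per kilobase of transcript, des-2 had a level of 1260.0 and 2081 CPM in PVD and deg-3 one of 808 and 1387.

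mec-3, the LIM homeodomain gene that specifies PVD and the touch neurons (chrIV:10458816-10461867), stood at 284 and 630.0 CPM in PVD. In ASG its level was 3.98, 3.20, 1.58 and 0 CPM, in AWA 1.52, 0.553, 0.564 and 1.06 and in AWB 0, 0, 7.06, 4.77 and 4.28. The groups did not overlap (log2 difference 7.98 ± 0.47, adjusted p = 3.56e-15). mec-10, a DEG/ENaC channel subunit of harsh touch, was the most even marker between the PVD libraries at 243 and 249.8 CPM, against at most 7.06 in an amphid library. The dendrite receptor gene dma-1 reached 681 and 1343 CPM and the claudin-like hpo-30 319 and 552 CPM, with amphid levels of 0.663 to 23.8 and 1.41 to 16.7 CPM. The tyramine receptor ser-2, at 1322 and 3257 CPM in PVD, was also measured at 36.8 to 101 CPM in ASG, 11 to 82.9 in AWA and 0 to 41.8 in AWB, and its log2 difference was 5.85 ± 0.43. acp-2, of the acid phosphatase family, the DEG/ENaC gene asic-1 and unc-86 were higher too, by 7.02 ± 0.46, 5.83 ± 0.44 and 3.44 ± 0.40.

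The remaining markers did not follow that pattern. F49H12.4, whose upstream region is often used to label PVD, overlapped with an amphid type: it stood at 35.4 and 128 CPM in PVD and at 104, 105, 75.2 and 72.9 in ASG, but at no more than 6.15 CPM in AWA and AWB. It was called against the amphid mean (3.02 ± 0.44, adjusted p = 4.03e-06, or 0.0886 without PVD 63) and not against ASG (-0.15 ± 0.55, adjusted p = 0.908). degt-1, a DEG/ENaC gene described together with mec-10 in harsh touch, had no counts in either PVD library, and pan-neuronal libraries averaged 22.5 CPM.

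**Figure D3:**
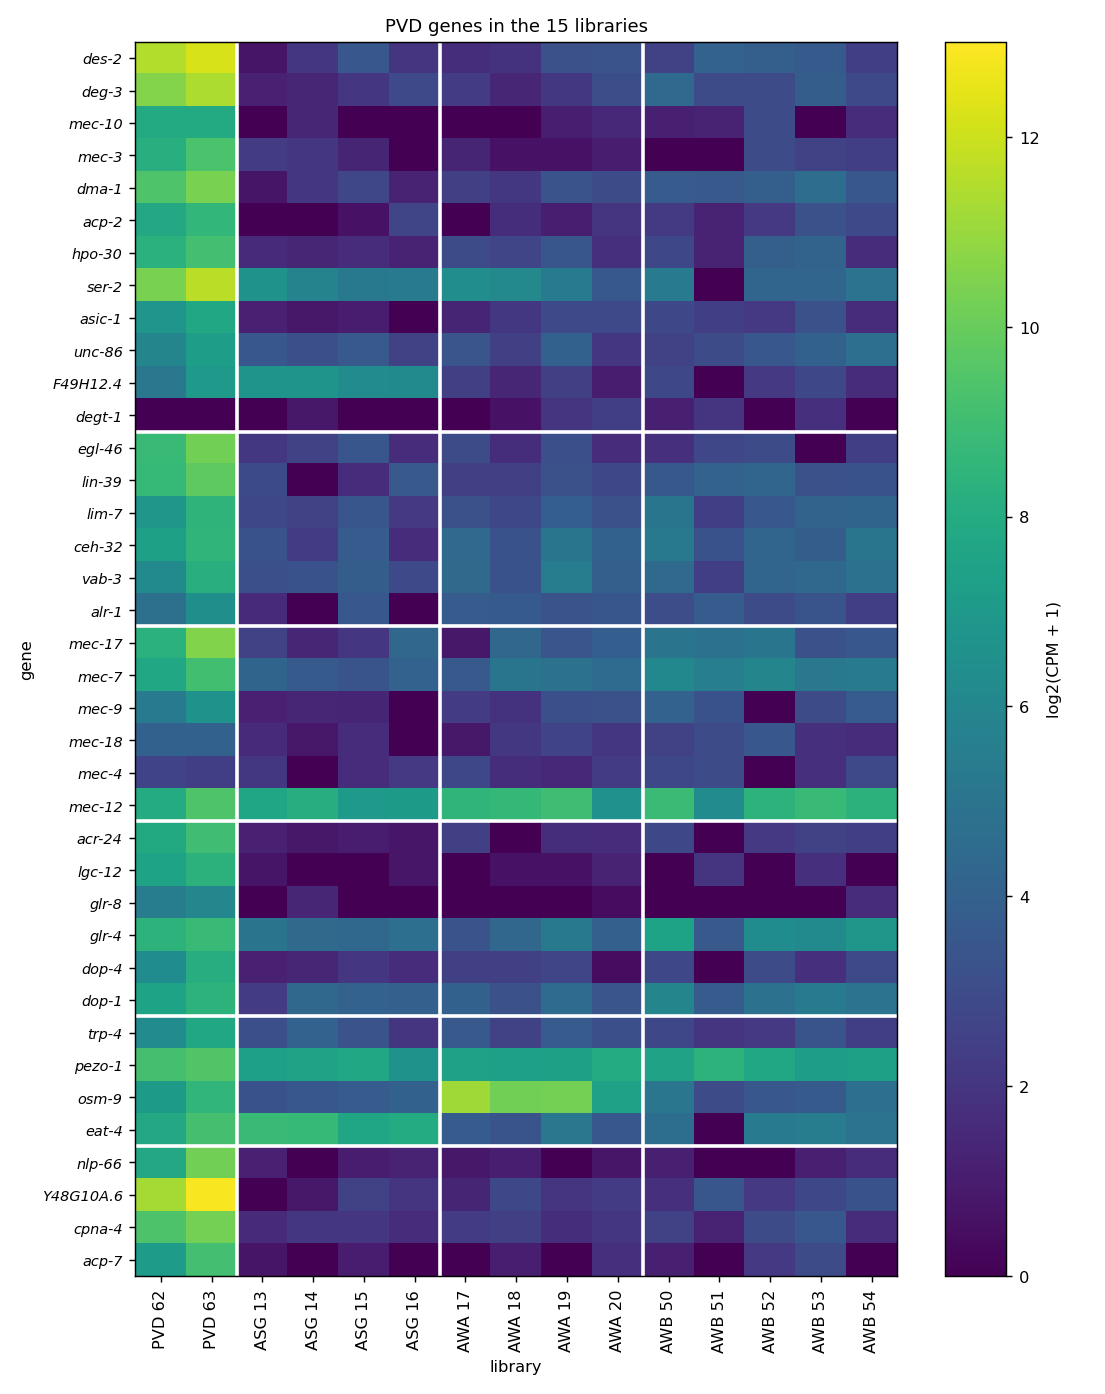
Levels of 38 genes in the 15 libraries as log2(CPM + 1) in colour. White lines divide the cell types and the blocks of PVD markers, transcription factors, touch neuron genes, receptors, further sensory and glutamate genes, and genes from the top of the ranking. Most are brightest in PVD 62 and PVD 63. F49H12.4 and eat-4 are also bright in ASG, osm-9 in AWA, and pezo-1 and mec-12 throughout, while mec-4 and degt-1 are dark in PVD.

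Among factors of PVD and touch neurons and among homeobox factors, more were called higher than lower in PVD. Of 8 tested factors of PVD and touch neurons, 4 were higher: mec-3, unc-86, egl-46 and alr-1 (alr-1 at an adjusted p of 0.118 without PVD 63). The zinc-finger gene egl-46 was at 439 and 1191 CPM in PVD against 0 to 9.99 in amphid libraries (log2 difference 7.54 ± 0.69). Its partner egl-44, a TEAD factor, was not called, with 58.3 and 30.4 CPM in PVD and 3.53 to 51.9 in amphid libraries. The aryl hydrocarbon receptor gene ahr-1 had 1 count in PVD. The zinc-finger homeobox gene zag-1 was at 49 and 32.6 CPM in PVD within an amphid range of 9.88 to 64.2 CPM.

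In the Hox cluster, which patterns the body axis, 1 of 6 tested genes was called. The mid-body gene lin-39 stood at 414 and 871 CPM in PVD, 6.63, 0, 2.10 and 11.3 in ASG, 4.56, 4.42, 8.46 and 6.01 in AWA and 11.1, 15.8, 17.7, 8.34 and 8.56 in AWB. No amphid library came near the PVD level, and the log2 difference was 6.49 ± 0.35 (adjusted p = 6.06e-16). The posterior genes mab-5 and egl-5 stood at 10.4 and 2.17 and 4.17 and 0 CPM in PVD and were not called. Over all homeobox factors 13 of 72 were higher and 4 lower, with 2 lower without PVD 63 and 7 without AWA 20 and AWB 51. The 13 and 4 are 18.1% and 5.56% of the 72, against 5.60% and 4.06% over all genes. The higher ones included the LIM gene lim-7 at 116 and 349.8 CPM, the Six-family gene ceh-32 at 165 and 358 CPM and the Pax6 gene vab-3 at 71.9 and 293 CPM. Their amphid maxima were 32.0, 36.9 and 44.6 CPM.

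Of 11 tested factors of the amphid neurons 1 was lower against the mean (3 without AWA 20 and AWB 51) and 1 higher, and most were high in only part of the 3 types. The Otx gene ceh-37 was lower (-5.55 ± 1.02): it had 3.13 and 2.17 CPM in PVD, 179.7 to 319 in ASG, 15.2 to 147 in AWA and 11.5 to 159 in AWB. ceh-79 had no counts in PVD and 2.38 to 141 CPM in amphid libraries, which puts it at least 26.5-fold lower. The nuclear receptor gene odr-7, which specifies AWA, and the LIM gene lim-4, which specifies AWB, had 0 and 0 and 3.13 and 4.34 CPM in PVD, and the test against the mean gave an adjusted p of 0.20 and 0.168. sox-2 ran the other way at 127 and 363 CPM in PVD: it was higher than in ASG and AWA (9.60 to 15.6 and 8.85 to 25.4 CPM) and overlapped with AWB (60.5 to 905 CPM), with an adjusted p of 3.02e-04 against the mean and 0.284 without PVD 63. daf-19, the RFX factor that drives cilium genes, was at 68.8 and 185 CPM in PVD and 40.3 to 688 in amphid libraries and was not called (adjusted p = 0.455).

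Part of the gene set of the gentle touch receptor neurons was higher in PVD. Of 16 such genes tested, 7 were higher and 0 lower. mec-17, which acetylates alpha-tubulin, was at 309 and 1484 CPM in PVD, with a wide gap between the libraries, and at 0.760 to 31.8 CPM in amphid libraries (6.25 ± 0.48). The beta-tubulin gene mec-7 was at 210.5 and 541 CPM against at most 66.4 (3.89 ± 0.38), and the extracellular matrix gene mec-9 at 38.6 and 97.8 CPM against at most 16. mec-18, mtd-1 and unc-24 were higher by 2.47 ± 0.62, 3.19 ± 0.70 and 1.96 ± 0.47. These smaller differences rested on both PVD libraries: without PVD 63, 3 members were called, with an adjusted p of 0.0779, 0.0583 and 0.132 for those genes, and without PVD 62, 6 were, with 0.171 for mec-18.

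mec-4, a pore-forming subunit of the gentle touch channel and a defining gene of touch receptor neurons, was not part of this. It was at 5.21 and 4.34 CPM in PVD. Its level was 3.31, 0, 2.10 and 3.54 CPM in ASG, 6.08, 2.21, 1.69 and 3.89 in AWA and 6.15, 7.20, 0, 2.38 and 6.42 in AWB, and 70.5 on average in pan-neuronal libraries. PVD fell inside the amphid range (log2 difference 0.54 ± 0.70, adjusted p = 0.765). mec-2, the stomatin-like partner, was at 79.2 and 180.3 CPM in PVD and 389 to 765 in ASG, and was called lower without AWA 20, without AWB 51 and without both (for both, adjusted p = 0.00131, against 0.102 with them). The alpha-tubulin mec-12 was at 255 and 693 CPM in PVD and 76.4 to 517 in amphid libraries, with 3481 in pan-neuronal ones.

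Among DEG/ENaC channels, a family of sodium channels opened by force or acid, 6 of 24 tested genes were higher and 0 lower. Beside mec-10 and asic-1 these were del-1 at 188 and 398 CPM, del-3 at 21.9 and 58.7 CPM, deg-1 at 103 and 84.7 CPM and unc-8 at 15.6 and 43.4 CPM. The amphid maximum was 10.6 CPM for del-1, 3.53 for del-3 and 26.3 for deg-1, all below the PVD libraries. For unc-8 it was 64.0 CPM, above them, and its adjusted p of 0.0124 became 0.503 without PVD 63.

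Of 19 tested TRP, TMC and Piezo genes 5 were higher and 0 lower (5 and 2 without AWA 20 and AWB 51). trp-4, a TRPN mechanosensory channel, was at 77.1 and 211 CPM against at most 16 in an amphid library (4.20 ± 0.36). trpa-2 was at 30.2 and 78.2 CPM against at most 17.1. pezo-1, the worm Piezo channel, was present in every library and higher in PVD at 580.4 and 702 CPM, against 99.7 to 214 in ASG, 159 to 259 in AWA and 157 to 337 in AWB (1.77 ± 0.23). The TRPV genes osm-9 and ocr-2 sat between the types: osm-9 was at 135 and 374 CPM in PVD, 8.62 to 15.6 in ASG, 7.20 to 33.2 in AWB and 175 to 2263 in AWA. ocr-2 was at 52.1 and 34.8 CPM in PVD and 52.3 to 189 in AWA, with at most 8.64 CPM in ASG and AWB. Both were called against the mean (1.98 ± 0.53 and 2.13 ± 0.69) and were below AWA, osm-9 with a call (log2 difference -2.27 ± 0.76, adjusted p = 0.0466) and ocr-2 without one (-1.44 ± 0.87, adjusted p = 0.365). Without PVD 63, 3 of the 5 were called, and osm-9 had an adjusted p of 0.561 against the mean. ocr-2 lay at the threshold, with adjusted p from 0.0130 to 0.454 when 1 library was left out, and was not called without PVD 62, PVD 63, ASG 13, ASG 14, ASG 16, AWA 18, AWA 19, AWB 50, AWB 52, AWB 53 or AWB 54.

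Lists of transmitter receptors had more higher members than the share over all genes. In the DEG-3 group of nicotinic subunits 5 of 7 tested were higher: des-2, deg-3, acr-24 at 235 and 519 CPM, acr-17 at 106 and 162.9 CPM and acr-5 at 43.8 and 91.2 CPM. acr-17 was the one with a clear level in an amphid type, 24.5 to 41.6 CPM in ASG, still below PVD. Of the other nicotinic subunits 6 of 18 were higher and 1 lower, and the 6 included lev-1, unc-29, unc-38, unc-63 and acr-8, subunits of the levamisole receptors known from worm muscle. Their PVD levels ran from 16.7 and 47.8 CPM for unc-29 to 58.3 and 121.7 CPM for unc-63, and for lev-1 (31.3 and 130.3 CPM) and unc-63 the amphid maxima of 35.3 and 86.7 CPM overlapped with PVD. Without PVD 63 none of the 6 was called (adjusted p = 0.0756 for acr-8 to 0.367 for unc-63), while all 5 of the DEG-3 group were. Body-wall muscle genes other than act-4 took 1.43% and 0.874% of counts in PVD 62 and PVD 63 and 0.441% to 3.30% in amphid libraries, and these 6 subunits were higher in PVD 63. The part of muscle RNA in them was not tested.

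Glutamate, amine and other ligand-gated receptors followed. Of 16 ionotropic glutamate receptors 4 were higher and 0 lower: glr-8 at 42.7 and 63 CPM against at most 2.14 in an amphid library, glr-4 at 339.7 and 430.2 CPM against 182, and the glutamate-gated chloride channels glc-2 at 59.4 and 102 and avr-14 at 183 and 374 CPM (avr-14 at an adjusted p of 0.0668 without PVD 63). Of 20 monoamine receptors 8 were higher and 3 lower, or 8 and 1 without PVD 62, 5 and 1 without PVD 63, and 8 and 6 without AWA 20 and AWB 51. The dopamine receptors dop-4 and dop-1 were at 80.2 and 276 and 187 and 332 CPM in PVD, above amphid maxima of 7.06 and 59.0 CPM, while the octopamine receptor octr-1 at 46.9 and 126 CPM overlapped with ASG (26.9 to 64.9 CPM). The serotonin receptors ser-1 and ser-4 were lower (-3.26 ± 0.65 and -2.29 ± 0.67), ser-1 at 4.17 and 2.17 CPM in PVD and 53.1 to 138 in ASG, and ser-4 had an adjusted p of 0.353 without PVD 62 and 0.103 without PVD 63. Of 44 other ligand-gated channels 11 were higher and 1 lower (7 and 0 without PVD 63, 11 and 3 without AWA 20 and AWB 51), led by lgc-12 at 187 and 330.2 CPM against at most 2.88 (8.43 ± 0.47).

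Some genes of dendrite shape were higher in PVD. Of 20 genes known from PVD branching 5 were higher and 0 lower (5 and 1 without AWA 20 and AWB 51). Beside dma-1 and hpo-30 these were kpc-1, a furin-like protease, at 745 and 1366 CPM against 67.7 to 205 in amphid libraries (3.35 ± 0.24), tiam-1, a Rac exchange factor that acts with DMA-1, at 298 and 389 CPM against 8.64 to 114 (3.72 ± 0.37), and act-4 (1.87 ± 0.30). act-4 is 1 of several near-identical actin genes, so its reads may be shared among them and its value is uncertain, and its adjusted p was 0.175 without PVD 63. The skin-derived ligands of DMA-1 were not called: sax-7, which neurons also make, was at 839.8 and 1028 CPM in PVD and 309.8 to 1003 in amphid libraries, mnr-1 at 21.9 and 10.9 and lect-2 at 5.21 and 2.17 CPM. The fusogen eff-1, which trims PVD branches, was at 8.34 and 13 CPM and not called either (0.11 ± 0.48, adjusted p = 1.0).

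Guidance genes were higher in 6 of 23 cases and lower in 1 (4 and 1 without either PVD library). The netrin receptor unc-5 was at 224 and 469 CPM in PVD, 4.0 to 21.2 in ASG, 6.84 to 27.2 in AWA and 27.8 to 45.9 in AWB (4.20 ± 0.34). The lamellipodin gene mig-10 was at 648 and 965 CPM against at most 166 (3.63 ± 0.28), and the Eph receptor vab-1 at 258 and 443 CPM against at most 166 (2.90 ± 0.35). Its ephrin ligand vab-2 was the lower one, at 5.21 and 2.17 CPM in PVD and 13.8 to 278 in amphid libraries (-4.82 ± 0.89). Of 16 tubulins 5 were higher and 1 lower, and without PVD 63 there were 3 and 1. ben-1, the beta-tubulin targeted by benzimidazoles, was at 671 and 1299 CPM against at most 335 (adjusted p = 5.70e-04, or 0.154 without PVD 63), and the ciliary alpha-tubulin tba-5 was lower at 3.13 and 4.34 CPM, with 466 to 957 in ASG, 30.4 to 249 in AWA and 2.88 to 17.2 in AWB.

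Calcium and sodium leak channels were higher in 7 of 11 cases and lower in 0. The CaV2 channel gene unc-2, which triggers transmitter release, was at 1383 and 2146 CPM against 104 to 667 in amphid libraries (2.48 ± 0.37). The sodium leak channel subunit nca-2 and its accessory genes unc-79 and unc-80 were higher by 2.93 ± 0.46, 2.15 ± 0.44 and 2.68 ± 0.40, unc-79 with an adjusted p of 0.0945 without PVD 63, where 4 of the 7 were called. unc-79 was highest in AWA among the amphid types, at 101 to 311 CPM, with 326 and 474 CPM in PVD.

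Potassium channels differed in both directions. Of 41 two-pore channels 9 were higher and 0 lower, among them twk-2 at 239 and 582 CPM, egl-23 at 85.4 and 222 CPM and unc-58 at 174 and 376 CPM, each above its amphid maximum of 77.8, 22.1 and 56.6 CPM. Voltage- and calcium-gated channels had 4 of 25 higher and 6 lower, and 3 lower without either PVD library. The Shaw-type egl-36 was at 76.1 and 167 CPM in PVD and at most 12 in an amphid library (4.67 ± 0.42), and kcnl-4, of the small-conductance family, at 737 and 1569 CPM against 236 to 473 in ASG (3.57 ± 0.39). On the lower side the Kv4 gene shl-1 was at 14.6 and 2.17 CPM in PVD and 23.1 to 414 in amphid libraries (-4.38 ± 0.76), and kvs-2 at 6.25 and 10.9 CPM, with 213 to 399.6 in ASG, 97.9 to 1029 in AWA and 7.20 to 194 in AWB (-4.92 ± 0.94).

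Peptide genes were called in both directions. Of 73 nlp genes 10 were higher and 6 lower, of 30 flp genes 2 and 4, and of 27 insulin-like genes 0 and 9. These 27 of 39 insulin-like genes passed the filter on low counts, and 7 had no counts in at least 1 group. Any that passed only through a type in which it was high had to differ from it. Against AWA alone 17 insulin-like genes were lower, against ASG 1 and against AWB 5. Without PVD 62 the higher and lower members were 5 and 3 for nlp, 2 and 2 for flp and 0 and 0 for insulin-like genes. Without PVD 63 they were 10 and 4, 0 and 2 and 1 and 1, and without AWA 20 and AWB 51 the lower ones were 10, 7 and 11. nlp-66 had a level of 225 and 1214 CPM in PVD. In ASG it was 1.33, 0, 1.05 and 1.41 CPM, in AWA 0.760, 1.11, 0 and 0.707 and in AWB 1.23, 0, 0, 1.19 and 2.14, so that the groups were fully separate (9.62 ± 0.47). nlp-79 at 175 and 363 CPM and nlp-50 at 468 and 1373 CPM were likewise above amphid maxima of 6.63 and 347 CPM, and flp-14 at 434 and 1191 CPM overlapped with AWB (17.3 to 505 CPM, adjusted p = 2.44e-05, or 0.116 without PVD 63). Lower genes included some that were high in 1 amphid type: flp-27 was at 12.5 and 10.9 CPM in PVD and 8660.0 to 17443 in ASG, ins-18 at 4.17 and 2.17 CPM in PVD and 51.6 to 491 in AWA, and nlp-3 at 11.5 and 13 CPM in PVD and 176 to 6130.1 in AWB. ins-18 had an adjusted p of 0.00403, or 0.0891 without PVD 62 and 0.0835 without PVD 63.

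nlp-1, an amphid peptide gene, was lower against each amphid type. Its level was 20.8 and 21.7 CPM in PVD, 456 to 1054 in ASG, 115 to 2147 in AWA and 30.3 to 754 in AWB (-4.95 ± 0.93, adjusted p = 2.28e-04). The 97 neuropeptide receptors had 16 higher and 16 lower members, 16 and 1 without PVD 62, and 9 and 6 without PVD 63. Among the higher were ntr-2, a receptor of the oxytocin and vasopressin family, at 37.5 and 73.9 CPM (5.95 ± 0.53) and npr-43 at 101 and 169 CPM (5.72 ± 0.36), and frpr-6 had no counts in PVD, at least 15.2-fold lower (adjusted p = 0.00113, or 0.0761 without PVD 62). Of 24 innexins, the gap junction proteins, 4 were higher and 0 lower: inx-19 at 109 and 367 CPM, unc-9 at 362 and 743 CPM, inx-1 and unc-7. inx-1 and unc-7 had an adjusted p of 0.194 and 0.508 without PVD 63.

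Of 18 genes of transmitter synthesis and transport, 1 was called against the amphid mean. The vesicular glutamate transporter eat-4 was at 225 and 580.1 CPM in PVD, 433, 413, 198 and 255 in ASG, 12.9, 9.40, 36.1 and 10.6 in AWA and 24.6, 0, 38.8, 45.3 and 30 in AWB. PVD overlapped with ASG (log2 difference from ASG 0.31 ± 0.60, adjusted p = 0.793) and lay above every AWA and AWB library (2.91 ± 0.45 against the mean, adjusted p = 1.18e-05, or 0.0610 without PVD 63). The acetylcholine genes unc-17 and cha-1, the GABA gene unc-47 and the serotonin gene tph-1 stood at 21.9 and 32.6, 16.7 and 26.1, 2.08 and 2.17 and 4.17 and 4.34 CPM in PVD, where pan-neuronal libraries averaged 632, 503, 74.5 and 57.0 CPM. cha-1 was called lower without AWA 20 and AWB 51 (adjusted p = 0.0485, against 0.230 with them).

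Part of the genes of the cilium were lower in PVD. Of 42 tested genes of intraflagellar transport and the BBSome, the train that builds and supplies cilia, 10 were lower and 0 higher, with a median log2 difference of -1.53. Without AWA 20 and AWB 51, 22 were lower, without PVD 62 none was and without PVD 63, 2 were. The kinesin gene osm-3 was at 18.8 and 26.1 CPM in PVD, 1272, 834, 593 and 580.0 in ASG, 125, 63, 59.2 and 33.2 in AWA and 62.7, 8.64, 38.8, 46.5 and 40.7 in AWB. ASG stood far above PVD, and the lowest AWB library, AWB 51, lay below it (-2.57 ± 0.64, adjusted p = 0.00583, or 0.181 without PVD 62 and 0.0673 without PVD 63). bbs-1, a BBSome subunit, differed by -3.24 ± 0.89 and the tubby gene tub-1 by -3.91 ± 0.92, with an adjusted p of 0.328 and 0.152 without PVD 62 and 0.0524 and 0.0417 without PVD 63. PVD was not at 0 for these genes, with 8.34 and 30.4 CPM for bbs-1 and 8.34 and 19.6 CPM for tub-1.

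The transition zone, the gate at the base of the cilium, had 8 of 19 genes lower and 0 higher, and 13 lower without AWA 20 and AWB 51, 1 without PVD 62 and 2 without PVD 63. mks-1 was at 2.08 and 2.17 CPM in PVD against 56.2 to 109 in ASG, 9.19 to 83.6 in AWA and 0 to 32.0 in AWB (-4.13 ± 0.98, adjusted p = 0.00372, or 0.126 without PVD 62 and 0.0610 without PVD 63). cdkl-1, a kinase that sets cilium length, was at 3.13 and 8.69 CPM in PVD and 14.4 to 1102 in amphid libraries, without overlap (-5.58 ± 1.01, adjusted p = 1.34e-04). Against ASG alone 29 of the 42 transport genes and 16 of the 19 transition zone genes were lower, where 8.79% of all genes were. Against AWA the counts were 7 and 4 (all genes 6.14%), and against AWB 2 and 3 (3.38%), with AWA 20 and AWB 51 among the controls.

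**Figure D4:**
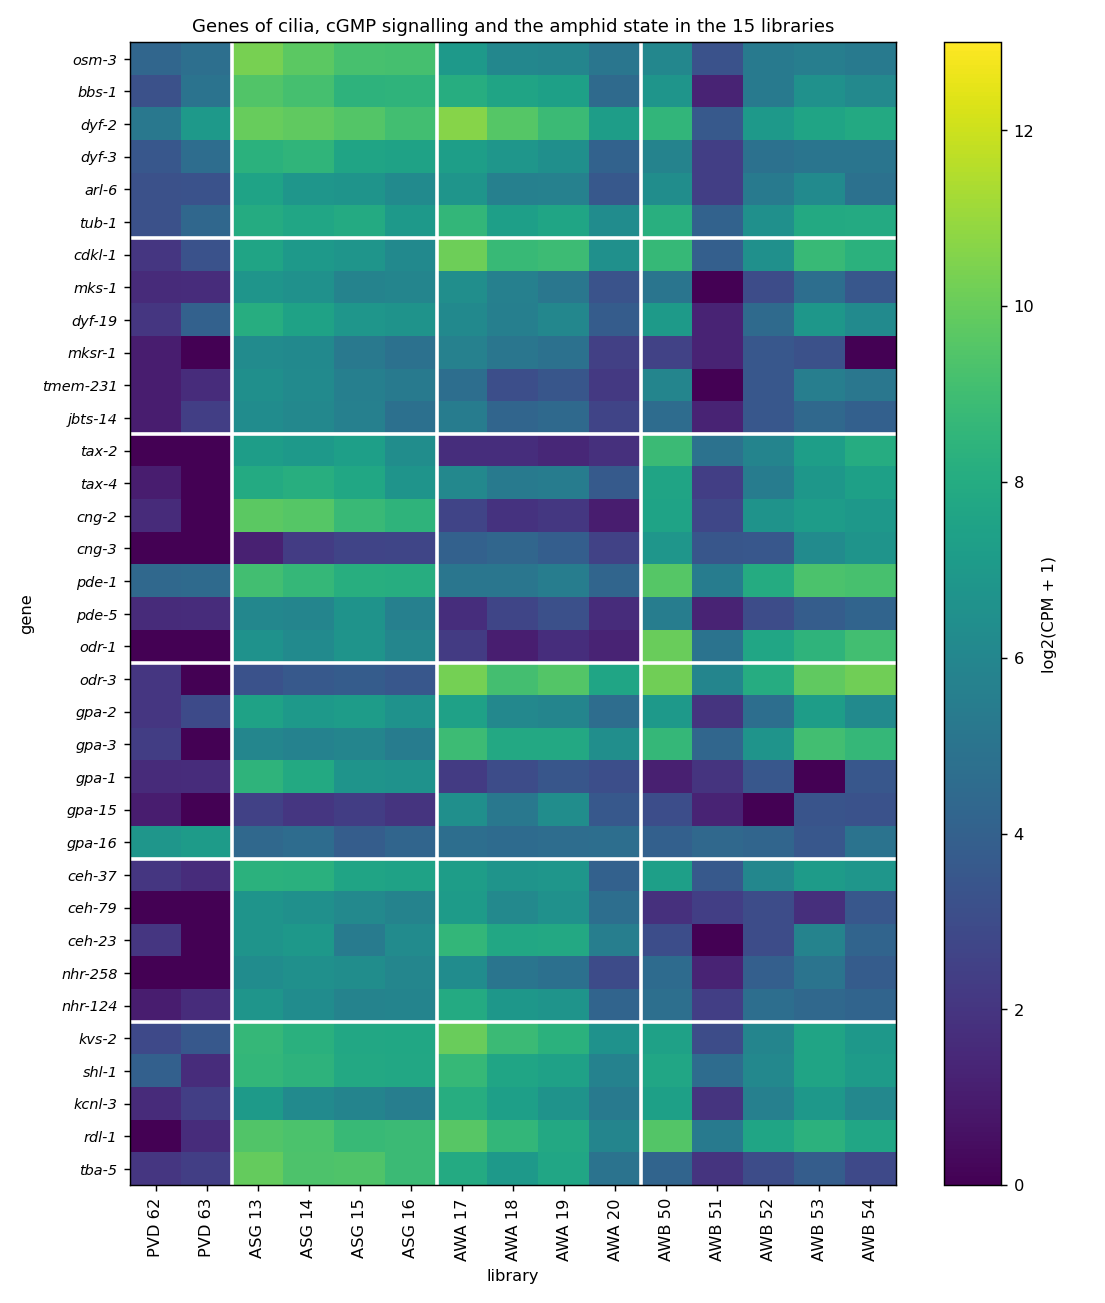
Levels of 35 genes in the 15 libraries as log2(CPM + 1) in colour, in blocks of ciliary transport, transition zone, cyclic GMP, G protein, transcription factor and other genes, with white lines between blocks and cell types. PVD is dark for nearly all, gpa-16 is brighter in PVD than elsewhere, and AWA 20 and AWB 51 are darker than their groups for most of them.

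Several genes of cyclic GMP signalling had few or no counts in PVD. Of 13 channels, kinases and phosphodiesterases 6 were lower and 1 higher, with 1 lower and 0 higher without PVD 62 and 3 and 0 without PVD 63. tax-4, the subunit that forms the sensory cyclic GMP-gated channel with TAX-2, had 1.04 and 0 CPM in PVD, 243, 284, 214 and 107 in ASG, 66.1, 39.3, 43.4 and 11.7 in AWA and 189, 4.32, 42.4, 118 and 169 in AWB. It had 1 count in PVD, and the pooled count ratio of amphid to PVD libraries was 159 (exact 95% interval 28.6 to 6297). tax-2 had no counts in PVD, 82.1 to 161 CPM in ASG, 28.8 to 465 in AWB and 1.69 to 2.48 in AWA, at least 51.3-fold below the mean of the types (adjusted p = 4.77e-04, or 0.0519 without PVD 62). The guanylyl cyclase odr-1, also at 0 in PVD, was at least 81.2-fold lower, and pde-1 had a log2 difference of -3.09 ± 0.66, with an adjusted p of 0.0888 and 0.0639 without PVD 62.

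Of 27 receptor and soluble guanylyl cyclases, the enzymes that make cyclic GMP, 4 were lower and 1 higher (6 and 1 without AWA 20 and AWB 51). gcy-11, gcy-15 and gcy-21 had log2 differences of -5.70 ± 0.78, -4.70 ± 0.91 and -5.74 ± 1.07, with 10.4 and 4.34, 3.13 and 8.69 and 1.04 and 6.52 CPM in PVD and 13813 to 19122, 5065 to 9874 and 5186 to 12254 in ASG. All 3 were far above PVD in ASG, and gcy-15 and gcy-21 are also on the ASG marker list. Likewise odr-4, odr-7, odr-8 and odr-10 are on the AWA marker list, and lim-4, odr-1 and nlp-3 on the AWB list. Their lower levels in PVD are thus partly set by the choice of markers. The chaperone genes odr-4 and odr-8, which bring chemoreceptors to the cilium, were at 32.3 and 41.3 and 57.3 and 71.7 CPM in PVD. They stood at 53.3 to 268 and 64.4 to 579.9 CPM in amphid libraries and had log2 differences of -1.96 ± 0.47 and -1.96 ± 0.48 (adjusted p = 0.00435 and 0.00530). Without PVD 62 their adjusted p was 0.149 and 0.171, and without PVD 63 0.0507 and 0.0673. odr-10, the diacetyl receptor of AWA, was at 10.4 and 8.69 CPM in PVD and 1094 to 12773 in AWA.

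Sensory G protein alpha subunits had 5 of 19 genes lower and 1 higher, and 2 and 1 without either PVD library. odr-3 was at 3.13 and 0 CPM in PVD, 8.62 to 12.6 in ASG, 200.1 to 1245 in AWA and 59.1 to 1172 in AWB. gpa-2, gpa-3 and gpa-1 were also lower, with 3.13 and 6.52, 4.17 and 0 and 2.08 and 2.17 CPM in PVD. Their adjusted p was 0.0996, 0.0232 and 0.341 without PVD 62 and 0.0293, 0.0503 and 0.161 without PVD 63. gpa-16, a G protein gene known from embryonic spindle positioning, was higher at 111 and 141 CPM against 10.7 to 30 CPM (2.64 ± 0.32).

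Most serpentine chemoreceptors, the receptors of odours and tastes, had no counts in some group. Of 1308 such genes, 235 passed the filter on low counts, and any that passed only through a type in which it was high had to differ from it. Of the 235, 11 were higher and 6 lower against the mean (24 lower without AWA 20 and AWB 51, 0 without either PVD library, and 5 higher without PVD 63), that is 4.68% and 2.55% against 5.60% and 4.06% over all genes, and 158 of them had no counts in at least 1 of the 4 groups. srh-74 was at 82.3 and 174 CPM in PVD with 4 counts in all 13 amphid libraries, a pooled count ratio of 473 (exact 95% interval 181 to 1757). srab-12 was at 40.6 and 91.2 CPM in PVD and srab-9 at 42.7 and 91.2 CPM, and srab-9 overlapped with AWA (8.84 to 92.0 CPM).

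Nuclear hormone receptors, a family expanded in worms, had 35 of 176 tested genes lower and 2 higher, and 49 lower without AWA 20 and AWB 51, 4 without PVD 62 and 7 without PVD 63. nhr-124 was at 1.04 and 2.17 CPM in PVD, 55.7 to 108 in ASG, 17.3 to 250.1 in AWA and 4.32 to 25.8 in AWB (-5.20 ± 1.003), and nhr-258 had no counts in PVD, at least 20.7-fold lower (adjusted p = 0.0712 without PVD 62). The higher members were nhr-31 at 97.9 and 124 CPM and nhr-6 at 35.4 and 63 CPM, with an adjusted p of 0.102 and 0.529 without PVD 63. Globins, some of which sense oxygen, had 7 of 31 higher and 5 lower (7 and 0 without PVD 62, 5 and 0 without PVD 63), with glb-24 at 108 and 198 CPM in PVD against at most 18.4 and glb-9 shared with ASG (230.3 and 469 CPM in PVD, 117 to 237 in ASG).

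The top of the ranking held further genes that no list covered. Y48G10A.6 was at 2438 and 7432 CPM in PVD, 0, 0.800, 4.73 and 2.83 in ASG, 1.52, 6.08, 2.82 and 3.89 in AWA and 2.46, 10.1, 3.53, 5.96 and 8.56 in AWB (10.36 ± 0.44, adjusted p = 1.02e-18). cpna-4, of the copine family, was at 649 and 1240.5 CPM and acp-7, of the acid phosphatase family, at 145 and 545 CPM, against at most 10.7 and 7.15 in an amphid library. srlf-27 and M110.8 were at 35.4 and 58.7 and 21.9 and 71.7 CPM in PVD, with 2 and 10 counts in all amphid libraries, pooled count ratios of 363 (exact 95% interval 96.3 to 3064) and 64.3 (exact 95% interval 32.4 to 141.5). At the bottom, wdr-54, T01B11.1, ZK994.6 and ZK757.1 had no counts in PVD and were at least 38.1-, 33.4-, 116- and 56.9-fold lower. Without PVD 62 their adjusted p was 0.0739, 0.0260, 0.0606 and 0.193, and without PVD 63 that of ZK757.1 was 0.0682. rdl-1 and F02E11.2 had 1 count each in PVD, with 38.9 to 777 and 9.90 to 1843 CPM in amphid libraries, pooled count ratios of amphid to PVD libraries of 565 (exact 95% interval 101 to 22330.4) and 787 (exact 95% interval 141 to 31104).

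Non-coding genes beside PVD genes also ranked high. K03B8.22 lies within des-2 and was at 22.9 and 43.4 CPM. C02D4.6 (chrX:15305754-15305900) and C02D4.7 (chrX:15305756-15305901) overlap each other some 2791 and 2793 bases upstream of ser-2, and had 52.1 and 95.6 and 26 and 34.8 CPM in PVD and no counts in the 13 amphid libraries, at least 416- and 171-fold higher. Whether counting used strand is not given in the sources used here, so the reads of C02D4.6 and C02D4.7 cannot be told apart. The same holds for the reads of K03B8.22 and des-2. T01B7.11 (chrII:8732700-8732843) lies 207 bases from the collagen gene rol-6. It stood at 407 and 828 CPM in PVD with no counts in any amphid library, at least 3479-fold higher, and averaged 22.6 CPM in AVE, a sorted interneuron.

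rol-6 itself was at 480.3 and 582 CPM in PVD, 9.94 to 86.3 in ASG, 26.5 to 92.6 in AWA and 32.0 to 104 in AWB (3.42 ± 0.47), and averaged 1112 CPM in AVE. It was the single hypodermal gene called of 19. A dominant rol-6 allele is a common marker in worm transgenes, and fragments upstream of ser-2 are common drivers of PVD reporters. The part of a transgene in these values was not tested.

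Skin genes differed between the PVD libraries. Of 143 cuticle collagens 9 were higher (6.29%, against 5.60% over all genes) and 1 lower. Without PVD 62, 1 was higher and 0 lower, without PVD 63 there were 7 and 0, and DESeq2 gave 10 lower. col-41 was at 181 and 54.3 CPM in PVD, 2.65, 8.0, 0 and 0 in ASG, 0, 2.76, 16.4 and 2.12 in AWA and 39.4, 154, 70.6, 46.5 and 34.2 in AWB, and the skin peptide nlp-31 at 108 and 4.34 CPM in PVD, 1.33 to 4.95 in ASG, 3.04 to 4.24 in AWA and 27.1 to 63.6 in AWB. PVD 62 and the AWB libraries were high, and PVD 63 overlapped with AWB for col-41 and lay below it for nlp-31. The log2 difference of nlp-31 was 2.94 ± 0.46 (adjusted p = 1.53e-05) and turned to -0.76 without PVD 62 (adjusted p = 0.762), and col-41 had an adjusted p of 3.08e-05 with it and 0.123 without it. Other tissue lists held few calls: 1 of 21 body-wall muscle genes (act-4) and none of the 6 pharyngeal muscle, 16 intestinal, 18 germline, 8 sperm and 8 glial genes tested.

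Genes used by all neurons were partly higher in PVD. Of 28 pan-neuronal genes 8 were higher and 0 lower, and without AWA 20 and AWB 51 there were 8 higher and 8 lower. Without PVD 63, 1 was higher. ric-4, the SNAP-25 gene of vesicle fusion, was at 966 and 2049 CPM against at most 468 (2.55 ± 0.47, adjusted p = 2.00e-04, or 0.118 without PVD 63), and unc-10, the active zone gene RIM, at 380.3 and 621 CPM against at most 193 (2.38 ± 0.37). unc-119, a cargo carrier for ciliary and axonal proteins, stood at 29.2 and 124 CPM in PVD and 235 to 556 in ASG and was among those lower without AWA 20 and AWB 51 (adjusted p = 0.0173, against 0.199 with them). Cytosolic ribosomal proteins had 8 of 80 lower and 0 higher, none without either PVD library, 13 lower without AWA 20 and AWB 51 and 31 lower by the DESeq2 test.

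Each amphid type alone gave its own picture. Against ASG 1155 genes were higher (7.61%) and 1334 lower (8.79%), against AWA 718 (4.73%) and 932 (6.14%), and against AWB 661 (4.35%) and 513 (3.38%). The comparisons share the PVD libraries. Depth was of like size in ASG and AWA and lower in AWB, and its part in these counts was not tested. With library totals alone as scaling, the split against ASG was 1928 higher and 928 lower, and the median of all genes shifted by 0.40 on the log2 scale there and by 0.22 against the mean of the types.

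Several genes higher in PVD than the mean were also high in 1 amphid type: osm-9 and ocr-2 in AWA, sox-2 in AWB, and eat-4, F49H12.4 and glb-9 in ASG. kcnl-4 was higher against each, by 1.82 ± 0.53 against ASG, 3.78 ± 0.55 against AWA and 5.11 ± 0.53 against AWB. pezo-1 had like differences of 1.96 ± 0.29, 1.76 ± 0.29 and 1.60 ± 0.28, and mec-3 of 7.68 ± 0.71, 8.88 ± 0.76 and 7.38 ± 0.69.

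**Figure D5:**
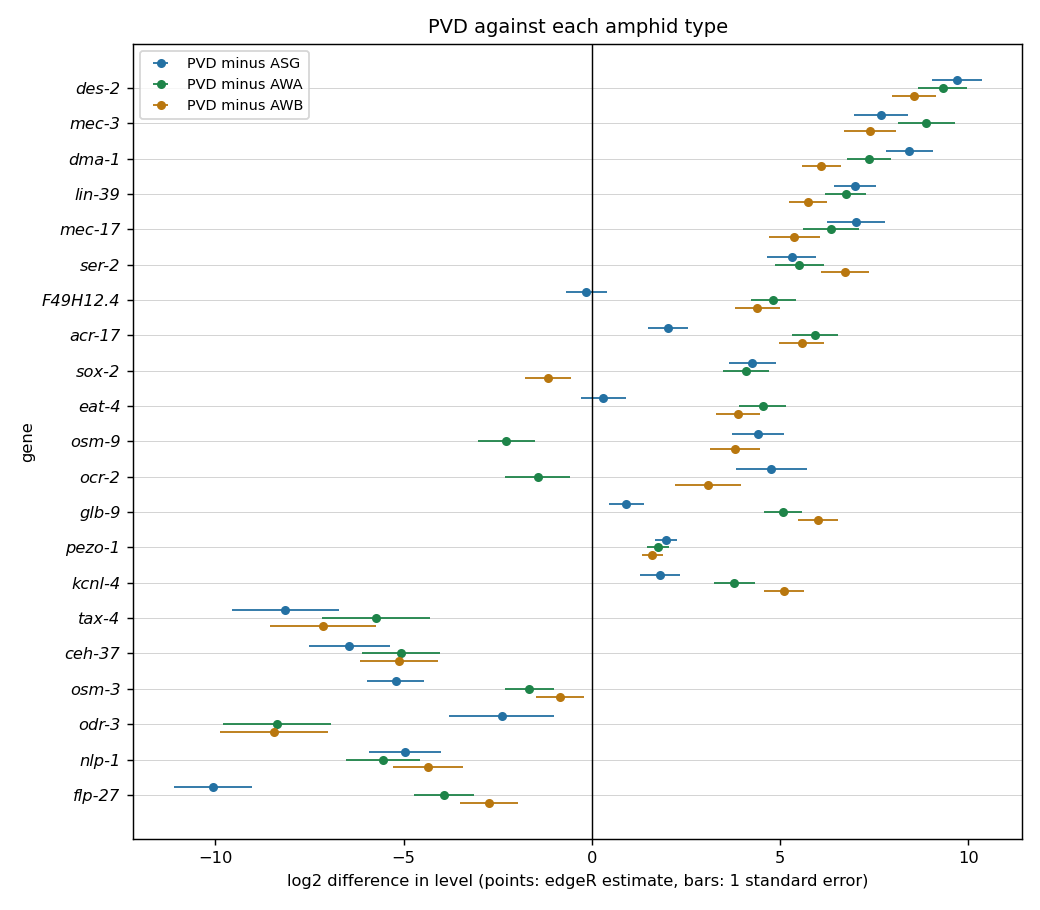
Log2 difference of PVD from ASG, AWA and AWB for 21 genes, as the edgeR estimate with bars of 1 standard error. des-2, mec-3, dma-1 and lin-39 lie far to the right for all 3 types, F49H12.4 and eat-4 lie near 0 against ASG, osm-9 and ocr-2 lie left of 0 against AWA alone, and tax-4 and ceh-37 lie to the left throughout.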

How the data were processed

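The authors deposited a table of raw read counts per gene for 37 libraries. STAR, SAMtools and featureCounts are named per the submitters' processing notes, with versions, options and genome build not given in the sources used here. Gene names and positions came from the WBcel235 annotation. Genes passing filterByExpr (15181 of 30631) were fitted over all libraries with 1 coefficient per group in edgeR 4.0.16 (TMM, quasi-likelihood test, R 4.3.3, Benjamini-Hochberg adjustment), and the approach was tested on simulated data. The contrasts set PVD against the mean of ASG, AWA and AWB and against each type. Whether same-type libraries are separate cultures is not stated by the labels, and p-values then reflect only how these samples vary, possibly for technical reasons. In 23 pairs of same-type libraries the counts differed by more than sampling noise (chi-square per degree of freedom 6.14 to 86.0).

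Members and gene lists were chosen with earlier results of these data known. Named genes were the 15 highest and 12 lowest by log2 difference, over all and protein-coding genes, among those called, at 20 CPM or more and without overlap, all members of 11 lists, and up to 6 called members per direction of each other list. Pooled count ratios sum the counts of all amphid libraries, so that deeper libraries weigh more, unlike the log2 differences. Limits of the form at least so many fold lower set the mean of the type means in CPM against the PVD floor. A type with high levels can therefore carry them. Intervals of count ratios cover counting error only. The alternatives were other scalings, no low-count filter, mitochondrial genes left out (no ribosomal RNA gene was annotated in the table), DESeq2 1.42.0, the 15 libraries alone, equal weight per amphid library, each library left out, and AWA 20 and AWB 51 left out.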

Additional observations from a re-analysis of the deposited data

Results flagged for a closer look

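Among 552 groups of 4 or 5 amphid libraries examined for the genes and lists named above, 40 held a library whose gap to the nearest other exceeded Dixon's 95% critical value. For normally distributed values chance flags about 1 in 20 groups, and genes of 1 library are not independent. That rate does not hold where the other libraries of a group have no counts, since any count is then flagged. The flagged values of K03B8.22, glr-8, srab-9, srh-74, srlf-27, mec-10, degt-1 and odr-7, and of M110.8 in ASG 16, were of this kind.

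AWB 51 and AWA 20, the libraries with low pan-neuronal shares, gave several of these. In AWB 51, body-wall muscle genes took 3.78% of counts (3.30% without act-4), against 0.943% to 1.73% in the other AWB libraries, and pharyngeal muscle genes 0.407% against 0.0171% to 0.0612%. In AWA 20, intestinal genes took 1.60% against 0.0134% to 0.267%. Among single genes, vab-1 stood at 166 CPM, eff-1 at 34.6, ocr-2 at 8.64 and K03B8.22 at 1.44 in AWB 51, above the rest of AWB, and unc-38 at 2.88, below it. pezo-1 stood at 259 CPM, and glr-8 and K03B8.22 at 0.354, in AWA 20.

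ASG 16 was high in genes of other tissues: hypodermal genes took 0.142% of counts, germline genes 0.0589%, sperm genes 0.0354% and cuticle collagens 1.89%, each above the other ASG libraries. It also stood out for acp-2 at 5.66 CPM, odr-7 at 2.12, M110.8 and srh-74 at 0.707, and, on the low side, inx-19 at 1.41. ASG 15 was not flagged for a tissue list, but had the highest ASG shares of body-wall muscle (2.96%) and intestinal genes (0.533%).

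Other single values lay apart from their groups. In ASG 13 these were tiam-1 at 35.1 CPM, ZK757.1 at 25.8 and srab-9 at 1.33. In ASG 14 they were kpc-1 at 137 CPM, glr-8 and mec-10 at 1.60 and degt-1 at 0.800, and in ASG 15 deg-1 at 26.3. In AWA 17 mig-10 stood at 166 CPM and M110.8 at 1.52, and in AWA 19 eat-4 at 36.1, col-41 at 16.36 and srlf-27 at 1.13. In the AWB group kpc-1 stood at 93.5 CPM in AWB 50, mtd-1 at 0 in AWB 52, dma-1 at 23.8 and egl-23 at 5.96 in AWB 53, and glr-8 and srab-9 at 2.14 in AWB 54. The single-gene values of this section stayed below both PVD libraries except those of degt-1, odr-7 and eff-1, which are not called, and ZK757.1, which had no counts in PVD.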

How the results depend on the processing

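No paired analysis was possible because the replicate numbers of the labels are each used once, so that no groups share them. Fitting the 15 libraries alone gave 310 lower genes against the mean of the types (617 with all 37 libraries), 760 higher and 717 lower against ASG (1155 and 1334), 609 lower against AWA (932), and 424 higher and 291 lower against AWB (661 and 513). Without AWA 20 and AWB 51, an alternative chosen after seeing the data, 1121 genes were lower against the mean, 1552 against AWA and 860 against AWB. Library totals alone gave 1928 higher than ASG, 67.5% of its calls against 46.4% with TMM, and moved the median of all genes by 0.22, 0.40 and 0.12 on the log2 scale against the mean, ASG and AWA. With 1 library left out, higher and lower genes ran from 431 to 941 and 136 to 812 against the mean, 732 to 1278 and 472 to 1524 against ASG, 424 to 873 and 270 to 1357 against AWA, and 233 to 705 and 154 to 738 against AWB. The low ends against the mean came without PVD 63 (431 higher) and PVD 62 (136 lower). DESeq2's Wald test gave 875 higher and 869 lower against the mean. DESeq2 size factors, no low-count filter, mitochondrial genes left out and the 13 amphid libraries weighed equally moved no count of calls by over 1.5 times. The log2 difference of nlp-31 ran from -0.76 without PVD 62, a reversal, to 3.75 without PVD 63. Of 143 called genes in the text, 89 kept the call under every alternative and 54 lost it under at least 1, C02D4.6 and C02D4.7 only by DESeq2 (adjusted p = 0.294 and 0.599). With 2 PVD libraries of 469314 and 763634 counts, and 1 when the other is left out, low genes are weakly measured, and a lone library is assumed to vary like the other groups. The causes were not tested.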

Other observations

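The lists of this section are small and held few called genes in number. The share called higher was nevertheless above that over all genes for peptide processing, microtubule modifiers and heat shock. Of 16 genes of peptide processing and dense-core vesicles 3 were higher and 0 lower (3 and 6 without AWA 20 and AWB 51): kpc-1, the vesicle-priming gene unc-31 at 461 and 680.0 CPM in PVD against 37.5 to 304 in amphid libraries (1.91 ± 0.38) and the Rab GTPase-activating gene tbc-8 (2.14 ± 0.47). Without PVD 63 the adjusted p was 0.0998 for unc-31 and 0.331 for tbc-8. Of 12 microtubule modifiers 2 were higher, mec-17 and the minus-end gene ptrn-1 at 107 and 174 CPM against 29.8 to 81.5 (1.36 ± 0.34, adjusted p = 0.00624, or 0.362 without PVD 63).

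Of 12 heat shock genes 3 were higher: hsp-16.41 at 461 and 558 CPM, hsp-4 at 1007 and 1025 and hsp-70 at 1139.9 and 1015, and none of them was called without either PVD library. hsp-16.41 has near-identical copies, so its value is uncertain. Against ASG alone 4 of the 12 were higher and 1 lower, against AWA 1 was higher and against AWB 0. The 12 genes took 0.825% of counts in PVD 62 and 0.778% in PVD 63, within the amphid range of 0.393% to 0.904%. None of 60 histone and 4 coelomocyte genes tested was called by the edgeR test, and without AWA 20 and AWB 51, 2 histone genes were higher and 2 lower.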
